A study of Mus musculus with 16 samples.

Results

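Rhox6 and Rhox9 are homeobox genes of the Rhox cluster, a group of reproductive homeobox genes that lie side by side on the mouse X chromosome. They were taken as the rows of the deposited expression table whose gene symbol was Rhox6 or Rhox9, so 2 of the 33531 listed genes are described here; Rhox5, which the same rule names, was not analysed here. The pair was chosen by its FPKM values in these libraries, because both genes were raised in embryo endothelial cells and also present in the yolk sac. Every comparison that involves embryo endothelial cells, or sets the yolk sac against the embryo, is therefore a description for these genes and carries no test. Differences between hemogenic and other endothelium within the yolk sac, and between stages outside the embryo endothelial cells, were not named in that choice and were tested. What the embryo endothelial cells were raised against is not stated, and embryo hemogenic endothelium may have been the reference. The p-values for embryo hemogenic endothelium may therefore not be free of the choice.

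Rhox proteins are DNA-binding transcription factors of the homeodomain class, best known from placenta, germ cells, testis and ovary. Rhox6 and Rhox9 were first described as the placenta-specific homeobox genes Psx1 and Psx2, and in the mouse both are also expressed in developing germ cells. The cluster is a textbook case of silencing by DNA methylation in tissues of the embryo proper, with less methylation in extra-embryonic lineages. The yolk sac holds an extra-embryonic lineage, the visceral endoderm, next to mesoderm that gives rise to endothelium and blood.

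The cells came from mouse conceptuses with B6C3F1 mothers and fathers homozygous for a Runx1-GFP allele (Runx1tm4Dow), so all 8 groups carry the reporter allele from the father. Endothelial cells (EC) were sorted as Runx1-GFPneg and CD31+ without kit, and hemogenic endothelial cells (HE), the endothelium that gives rise to blood, as Runx1-GFP+ and CD31+ with low or no kit; both sorts left out cells with CD41 or CD45. Yolk sacs gave one set of samples, and the trunk of the embryo around the aorta-gonad-mesonephros, with its umbilical and vitelline vessels and some somite tissue, gave the other, each at embryonic days E9.5 and E10.5. Each of the 8 groups held 2 libraries, and the labels do not say that they came from separate litters, so the p-values cover no more than the spread between these libraries, which may be technical. How many conceptuses went into a library is likewise not stated in the labels.

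Expression is in FPKM, the fragments counted for a gene divided by its transcript length and by the size of the library, as the authors deposited it, and the sum over genes lay between 586501 and 785252 per library. Read depth is unknown; for 8 of 15 libraries it could be set against E9.5 embryo EC replicate 1 from the spacing of low values, at 0.674 to 0.993 times. Cdh5, which encodes the endothelial junction protein VE-cadherin, and Pecam1, which encodes CD31, were present in every library, at no less than 24.2 and 12.6 FPKM, and Ptprc, which encodes CD45, stayed at or under 0.344 FPKM. Itga2b, which encodes CD41, was 3.88 to 58.5 FPKM over all libraries, highest in E9.5 yolk sac EC (58.5 and 31.5), and Kit was 2.7 to 11.1 FPKM in the EC libraries, although both sorts left out CD41 and the EC sort left out kit. The lowest Cdh5 and Pecam1 were both in E10.5 yolk sac HE replicate 2. In the yolk sac at E10.5, libraries labelled HE did not stand apart from EC by Runx1 (2.19 and 2.17 FPKM against 2.60 and 2.04), whereas in the other 3 settings both HE libraries were above both EC libraries. Results that rest on those libraries are given with that limit.

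The coding sequences of Rhox6 and Rhox9 are shown because the genes are close copies, and the counting of reads between them bears on every value below. In the GENCODE M21 transcripts (build GRCm38; the submitters' processing notes name mm9, so no coordinates are used) Rhox6 is read from the plus strand and Rhox9 from the minus strand of the X chromosome, each with 4 exons. Both coding sequences are 681 bases long, and they align without a gap with 617 identical bases (90.6%). The homeobox, the 60 codons that encode the DNA-binding homeodomain, was placed by the tryptophan and phenylalanine of its recognition helix and spans coding bases 451 to 630. It differs at 19 of 180 bases (89.4% identical), and the 450 bases before it at 34 (92.4% identical). In the homeobox sequences, 5′ to 3′, capitals mark bases at which the copies differ.
Rhox6: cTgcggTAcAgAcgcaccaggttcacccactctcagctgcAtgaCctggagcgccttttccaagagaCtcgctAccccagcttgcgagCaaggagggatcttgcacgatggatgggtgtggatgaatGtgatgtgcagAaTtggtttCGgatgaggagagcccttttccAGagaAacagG
Rhox9: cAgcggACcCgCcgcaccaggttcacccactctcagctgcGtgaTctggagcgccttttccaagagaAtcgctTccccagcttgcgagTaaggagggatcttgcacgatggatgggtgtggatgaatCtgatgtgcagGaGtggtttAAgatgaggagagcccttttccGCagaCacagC

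**Figure D1:**
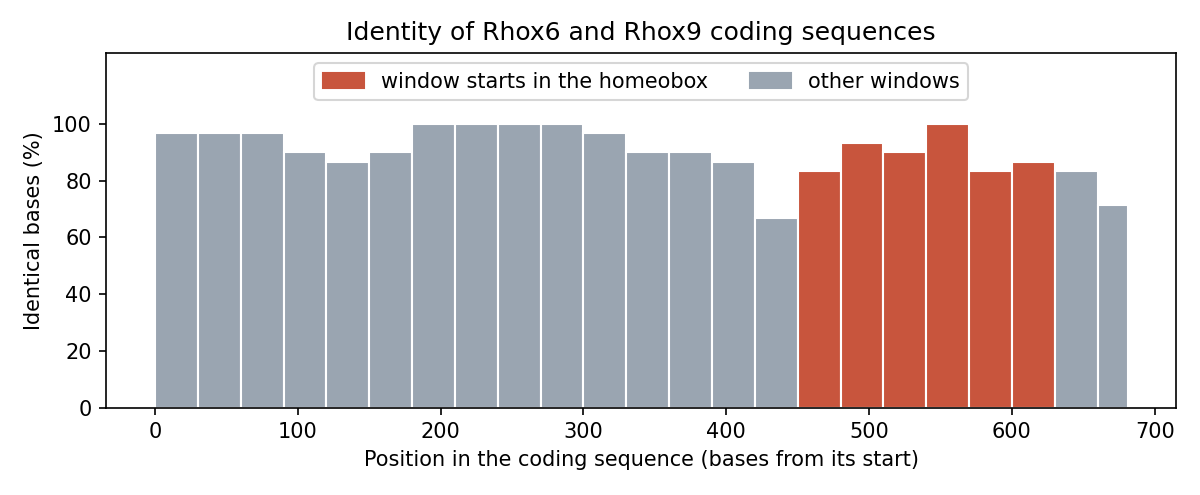
Percentage of identical bases between the coding sequences of Rhox6 and Rhox9 (y axis) in consecutive windows of 30 bases along the coding sequence (x axis, bases from its start); the last window is shorter, and windows in the homeobox are coloured. Windows between coding bases 181 and 300 are 100% identical, and the window just before the homeobox is the least alike, at 66.7%.

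The differences are spread unevenly. A run of 161 bases, coding bases 167 to 327, is the same in both genes, and a read that falls inside it cannot be given to either gene by its sequence.
Rhox6 and Rhox9, shared run: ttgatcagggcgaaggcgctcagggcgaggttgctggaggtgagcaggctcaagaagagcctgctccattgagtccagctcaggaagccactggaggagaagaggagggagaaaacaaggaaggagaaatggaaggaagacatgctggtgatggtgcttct
Of the 961 windows of 50 bases in the Rhox6 transcript 159 (16.5%) also occur in Rhox9, as do 19.1% of the 833 windows of the Rhox9 transcript in Rhox6, and no window of either occurs in the transcripts of any other annotated gene. Most of each transcript therefore tells the copies apart, although neither read length nor the treatment of reads that match both is stated in the labels.

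Rhox6 was highest in E10.5 embryo EC, at 17.2 and 11.4 FPKM. In E10.5 yolk sac EC it was 9.64 and 9.15, and in E10.5 yolk sac HE 9.15 and 9.64. In E9.5 yolk sac HE it was 5.94 and 7.43, and in E9.5 yolk sac EC 7.0 and 6.33. Every yolk sac library thus lay above every embryo library other than those of E10.5 EC. In the embryo the remaining groups were lower, with 3.19 and 2.63 FPKM in E10.5 HE, 3.12 and 2.12 in E9.5 EC, and 0.507 and 0.574 in E9.5 HE. Neighbours in this order that overlapped or nearly coincided were the cell types within the yolk sac at either stage, and E10.5 embryo HE with E9.5 embryo EC.

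Rhox9 was also highest in E10.5 embryo EC, at 22.1 and 14.2 FPKM, but its other levels followed another order. In E10.5 yolk sac HE it was 4.49 and 4.59 FPKM, in E9.5 yolk sac EC 3.5 and 2.57, and in E10.5 yolk sac EC 1.96 and 3.42. In E9.5 yolk sac HE it was 1.08 and 2.64. The embryo groups below the highest had 2.56 and 2.93 FPKM in E10.5 HE, 2.72 and 1.94 in E9.5 EC, and 0.033 and 0.157 in E9.5 HE. Only E10.5 embryo EC and E10.5 yolk sac HE at the top and E9.5 embryo HE at the bottom of this order did not overlap any other group; the other 5 groups each overlapped a neighbour.

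**Figure D2:**
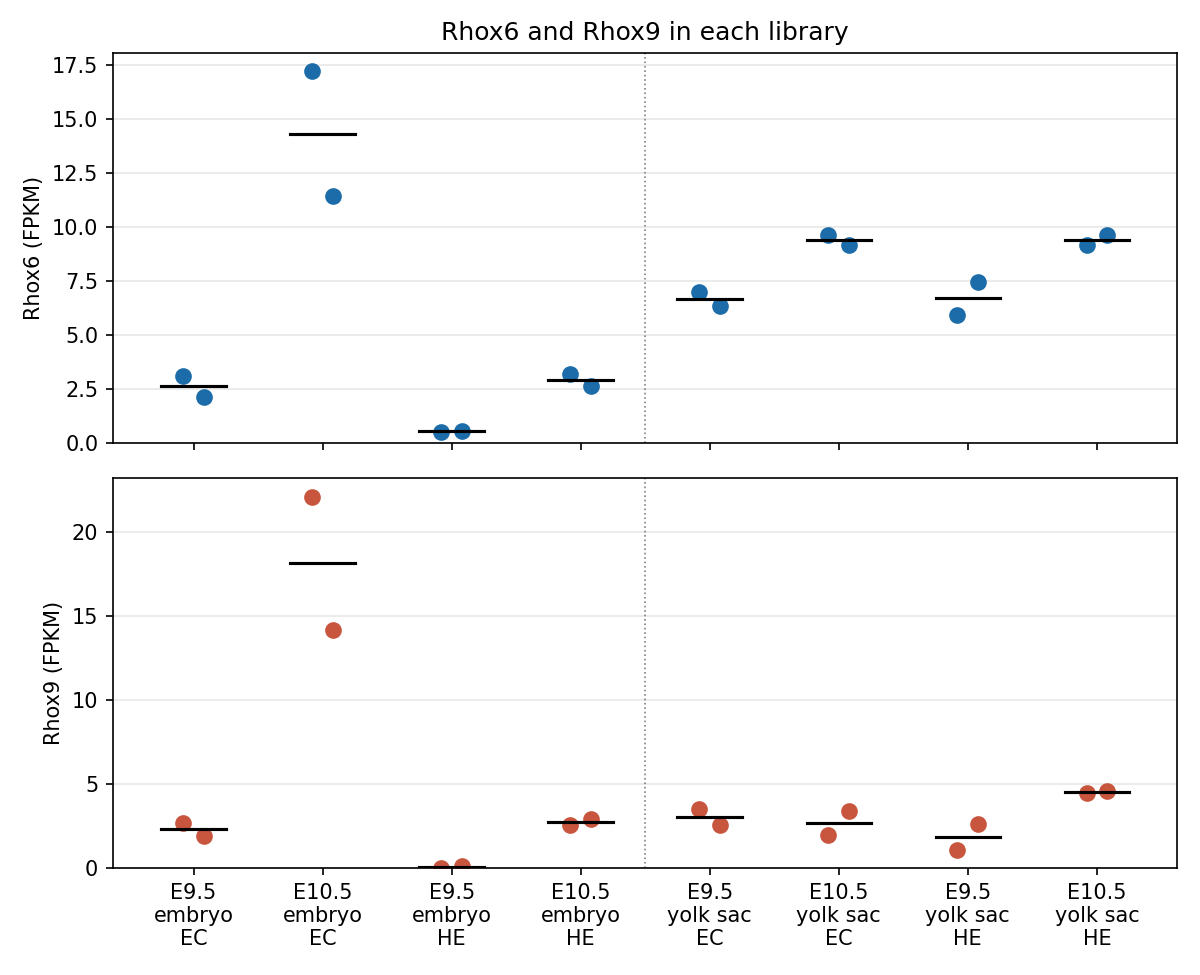
FPKM of Rhox6 (upper panel) and Rhox9 (lower panel) on linear axes in each of the 16 libraries (points), with the mean of the 2 libraries of a group (bars); embryo groups are left and yolk sac groups right of the dotted line. Both genes peak in E10.5 embryo EC and are lowest in E9.5 embryo HE, while only Rhox6 is at 5.94 FPKM or more in every yolk sac library.

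Within the embryo the copies moved in parallel. Mean Rhox6 was 4.91 times higher in EC than in HE at E10.5 and 4.84 times at E9.5, and mean Rhox9 6.61 times at E10.5; at E9.5 Rhox9 in HE was too close to 0 for its ratio to be read. From E9.5 to E10.5 the mean in embryo EC was 5.46 times higher for Rhox6 and 7.80 times for Rhox9. In each of these contrasts both libraries of the higher group lay above both of the lower. Pearson's r between the genes, on log2(FPKM + 1), was 0.997 over the 8 embryo libraries and 0.593 over the 8 yolk sac libraries; these are descriptions, over libraries that share group, depth and, for reads in the identical run, counts.

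In the embryo only the change with stage in HE was tested. Its libraries may have served as the reference when the genes were chosen, so its p-values may not be free of that choice. Both genes rose from E9.5 to E10.5, Rhox6 by 1.34 ± 0.22 (difference of log2(FPKM + 1) ± SE, n = 2 libraries a group, limma adjusted p = 0.0105) and Rhox9 by 1.77 ± 0.31 (limma adjusted p = 0.0128), with both E10.5 libraries above both E9.5 libraries. In this comparison 1.46% of 13955 tested genes were called at an adjusted p under 0.05. Runx1 fell in the same comparison, from a mean of 18.7 to 3.44 FPKM (−2.14, limma adjusted p = 0.000739). The call of either gene was lost when any of the 4 embryo HE libraries was left out, with limma adjusted p up to 0.0986 for Rhox6 and 0.125 for Rhox9 and differences no smaller than 1.24 and 1.69. Because Rhox9 was at 0.033 and 0.157 FPKM in E9.5 HE, its difference depends on the added constant and was 3.94 with 0.1 in place of 1.

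In the yolk sac Rhox6 showed no detectable difference between HE and EC. The difference was −0.003 at E9.5 (95% interval −0.48 to 0.48) and −0.0006 at E10.5 (−0.48 to 0.48), with a limma adjusted p of 1 in both. With 2 libraries a group, these intervals hold the differences that the values do not exclude, and they are not limits of detection. The intervals are not adjusted for the number of genes tested, so a difference beyond their limits could have gone uncalled. The same E10.5 comparison called 9.57% of the tested genes, and in it Cdh5 fell by 2.73 and Pecam1 by 2.56 (limma adjusted p = 0.0125 and 0.0135). Leaving out either library labelled HE at E10.5 gave −0.035 and 0.034 for Rhox6. At E9.5 0.0143% of the tested genes were called, and neither copy was among them.

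Rhox9 did not pass in the yolk sac cell type comparisons either, but its differences pointed apart at the 2 stages. HE was at −0.54 against EC at E9.5 (95% interval −1.21 to 0.12, limma adjusted p = 0.565), with overlapping libraries. At E10.5 it was at 0.62 (−0.05 to 1.28, limma adjusted p = 0.225), with both libraries labelled HE above both of EC. Whether these differ from each other was not tested.

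Nor did the change with stage in the yolk sac pass for either copy. Rhox6 was 1.41 times higher at E10.5 by its mean in EC and again in HE, with no overlap, at differences of 0.44 (95% interval −0.04 to 0.92, limma adjusted p = 0.324) and 0.44 (−0.04 to 0.92, limma adjusted p = 0.248). Rhox9 was at −0.15 in EC (−0.82 to 0.52, limma adjusted p = 0.837) and at 1.01 in HE (0.34 to 1.68, limma adjusted p = 0.0889). Of all tested genes 1.25% were called in yolk sac EC and 2.03% in yolk sac HE. The HE values at E10.5 rest on the libraries that Runx1 did not set apart, and leaving out each library in turn gave 0.61 to 1.41 for Rhox9 in HE.

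**Figure D3:**
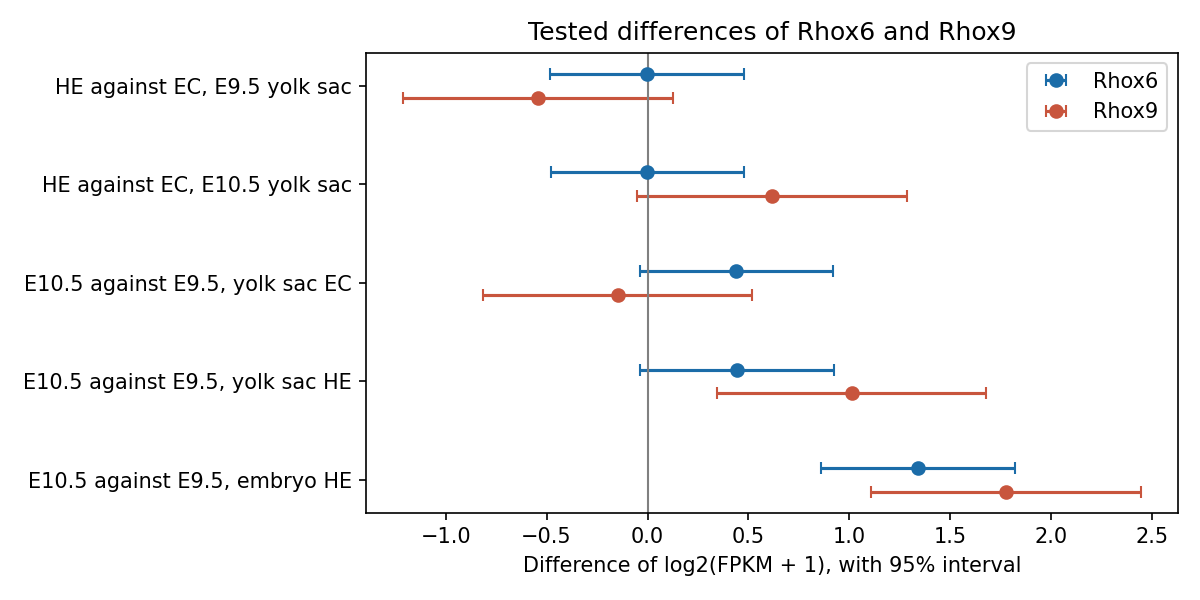
Differences of log2(FPKM + 1) (x axis) for Rhox6 and Rhox9 in the 5 comparisons that the choice of the genes did not name (rows). Points mark the limma estimate and bars its 95% interval. The 4 yolk sac comparisons were not called for either gene, and the rise from E9.5 to E10.5 in embryo HE was called for both.

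Since FPKM is scaled to transcript length, the level of Rhox9 could be set against that of Rhox6 within a library. The ratio was 1.28 and 1.25 in E10.5 embryo EC, 0.873 and 0.916 in E9.5 embryo EC, and 0.802 and 1.12 in E10.5 embryo HE. In all 8 yolk sac libraries Rhox9 stood at 0.50 of Rhox6 or less, down to 0.182, below these 6 embryo libraries. In E9.5 embryo HE, where both were low, the ratio was 0.065 and 0.274. Site was part of the reason for which the genes were picked, so this split is described and not tested. The part of reads that match both copies in this ratio was not tested.

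**Figure D4:**
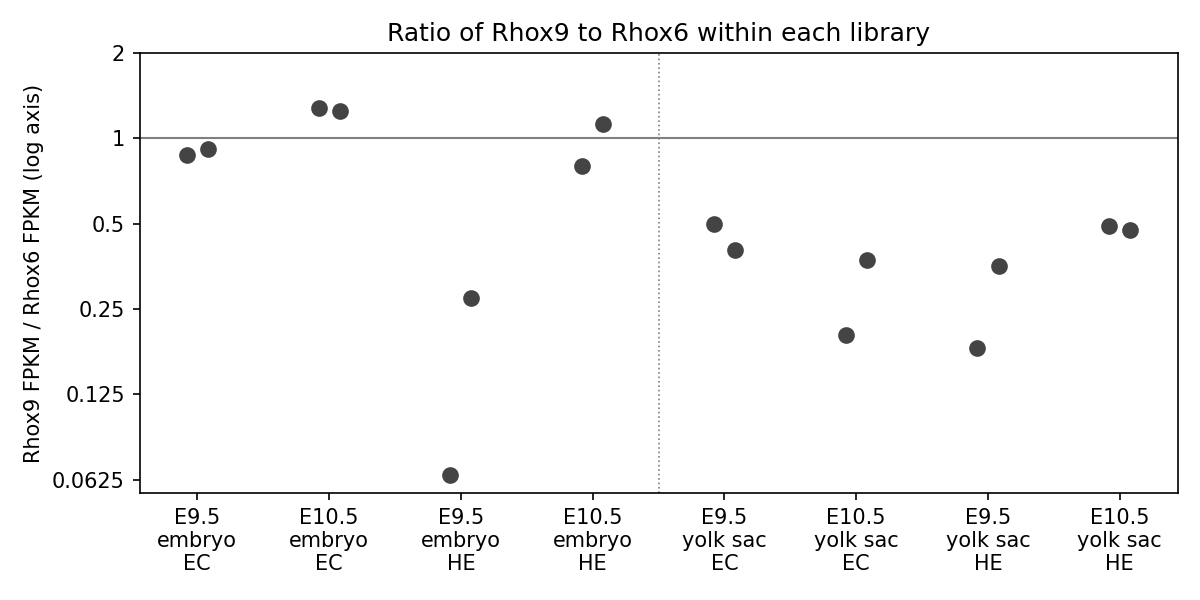
Ratio of Rhox9 FPKM to Rhox6 FPKM (y axis, log scale) in each library, 2 points a group; the grey line marks equal levels and the dotted line parts embryo from yolk sac groups. The embryo libraries other than those of E9.5 HE lie at 0.802 or above, and all yolk sac libraries at 0.50 or below.

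The other Rhox symbols of the table had low values. Of these 26 symbols 8, Rhox11 and all 7 Rhox3 symbols, were listed at 0 in every library, and none passed the filter of 1 FPKM in at least 2 libraries. Rhox2a reached 1.27 and 0.712 FPKM in E10.5 embryo EC, and Rhox12 reached 1.07 in E10.5 yolk sac EC replicate 1 with 0.443 in replicate 2; no other symbol exceeded 0.873. The summed FPKM of the 5 Rhox2 symbols was 2.53 and 1.01 in E10.5 embryo EC and at most 0.234 in every other library. The 7 Rhox4 symbols summed to 1.69 and 0.831 in E10.5 embryo EC and to as much as 1.06 elsewhere, in E9.5 yolk sac HE replicate 2. Rhox2 and Rhox4 genes are tandem copies, as are Rhox3 genes, so values of single symbols are uncertain. A listed 0 can also be a failed estimate, since Peg10 was listed at 0 in 14 libraries and at 112 and 123 FPKM in the other two.

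Genes of germ cells and pluripotency were set beside Rhox6 and Rhox9 as a list of 18. The list was drawn up with earlier results of these data known, so its direction is not independent evidence. In bulk RNA, fewer cells of a type and less RNA per cell cannot be told apart. Dppa3, a marker of primordial germ cells, was 39.6 and 24.7 FPKM in E10.5 embryo EC, 5.98 and 3.27 in E10.5 HE, 3.57 and 5.83 in E9.5 EC, and 0.529 and 0.762 in E9.5 HE. Pou5f1, which encodes the pluripotency factor Oct4, was 51.3 and 37.3 FPKM in E10.5 embryo EC and at most 8.65 in any other embryo library. Both had their highest and lowest embryo groups where Rhox6 and Rhox9 had theirs.

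Of the 18 genes on this list 14 were tested. Nanog, 1 of the 14, passed the filter only through E10.5 embryo EC (3.73 and 3.67 FPKM). The direction of Nanog in comparisons with that group follows from the filter. Zfp42 passed through E10.5 embryo EC replicate 1 (1.08 FPKM) and E9.5 embryo HE replicate 2 (1.06 FPKM), so it entered in part through that group. Both genes stay in the counts and medians. With stage in embryo EC 8 rose and 1 fell (median 1.37, all genes −0.01; 1.70% of all tested genes were called), led by Dppa5a at 3.34, Dppa3 at 2.53 and Pou5f1 at 2.34; the fall was that of Lin28a, an RNA-binding protein gene that holds back let-7 maturation. Without E10.5 embryo EC replicate 1 none was called, at a list median of 1.51, and 5 were called higher without its replicate 2. Leaving out a library of E9.5 embryo EC left 2 (replicate 1) or 3 (replicate 2) called higher. Between HE and EC at E9.5 none was called (median −0.29, 6 above and 8 below 0; 0.158% of all tested genes called by limma, 1225 at an unadjusted p under 0.05). At E10.5 7 were lower in HE and none higher (median −1.21, all genes 0.03; 0.208% of all tested genes called), among them Dppa5a at −2.79, Pou5f1 at −2.71 and Dppa3 at −2.56. With single libraries left out the number lower was 0 (E10.5 embryo EC replicate 1), 1 without E10.5 embryo EC replicate 2 or E10.5 embryo HE replicate 2, 2 without E10.5 embryo HE replicate 1, and 3 or 4 without any single E9.5 library. It was 4 with a replicate block, 2 on the TPM scale and 0 with a constant of 0.1, under which 1 gene was called higher with stage in embryo EC. With stage in embryo HE Dppa5a (2.87) and Dppa3 (1.73) rose, and Lin28a (−1.83) and Sall4 (−1.22), a zinc finger factor of stem and germ cells, fell. The list median was 0.43 against −0.01 for all genes, and 1.46% of all tested genes were called. When each embryo HE library was left out in turn, 0 or 1 gene was called higher and 0 or 1 lower, and with a constant of 0.1 none was called higher and 1 lower. Leaving out both E10.5 yolk sac libraries labelled HE gave 8, 6 and 2 called in those directions.

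Ddx4, Dazl, Prdm14, Nanos3 and Zfp42 (at most 1.08 FPKM) of the list were low in all libraries. The other members were higher in at least some libraries. In E10.5 embryo EC Utf1 was 24.7 and 21.5 FPKM and Dnd1 7.88 and 7.91. Tfap2c was 3.79 and 5.95 FPKM there, and Prdm1 3.52 and 5.14. Ddx4, an RNA helicase gene of migrated germ cells, did not exceed 0.432 FPKM, and Dazl did not exceed 0.151. Prdm14, a factor of germ cell specification, and Nanos3, a germ cell survival gene, had their highest values in E10.5 embryo EC, at 0.748 and 0.642 FPKM and at 1.97 and 0.474 FPKM. Of 12 germ line genes that DNA methylation is known to hold silent none passed the filter, and their sum ranged from 0.918 to 4.07 FPKM over all libraries. The summed level of the whole germ cell and pluripotency list was 302 to 378 FPKM in E10.5 embryo EC and 107 to 249 in the other groups, where Ifitm3, which is expressed well beyond germ cells, gave 41.0 FPKM or more. The part of germ cells in the Rhox6 and Rhox9 levels of embryo EC was not tested.

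Some of these transcripts were near 0 in the yolk sac and others were not. There Dppa3 was at most 0.702, Pou5f1 at most 1.40, Dppa5a at most 1.60 and Nanog at most 0.175 FPKM in any library, while Rhox6 was between 5.94 and 9.64 FPKM and Rhox9 between 1.08 and 4.59. Ifitm3 was between 41.0 and 190 FPKM there, Lin28a between 16.9 and 78.8 and Sall4 between 4.28 and 14.6. Against the embryo at E9.5, 7 of the 14 tested genes were lower and 1 higher in yolk sac EC (10.3% of all tested genes called), and 1 was lower in yolk sac HE (13.0% called). At E10.5, 11 of the 14 tested genes were lower and none higher in yolk sac EC (29.5% of all tested genes called), and 9 were lower and 1 higher in yolk sac HE (35.2% called). Dppa5a, Pou5f1 and Dppa3 led in EC at −5.37, −4.81 and −4.63. The 14 genes include Nanog, whose direction in E10.5 EC follows from the filter, and Zfp42, which passed it in part through E10.5 embryo EC. The part of germ cells in the yolk sac levels of Rhox6 and Rhox9 was not tested.

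**Figure D5:**
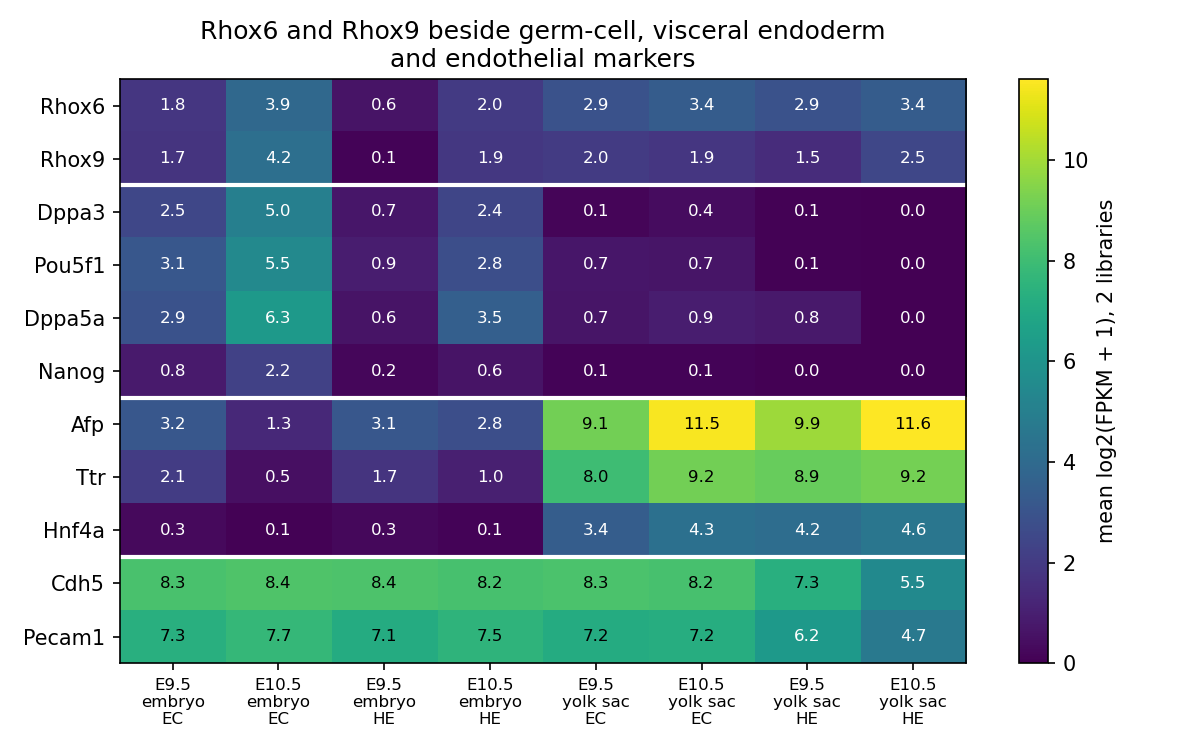
Mean log2(FPKM + 1) of the 2 libraries of each group (columns; colour and printed value) for Rhox6 and Rhox9, 4 germ cell and pluripotency genes (Dppa3, Pou5f1, Dppa5a, Nanog), 3 visceral endoderm genes (Afp, Ttr, Hnf4a) and 2 endothelial genes (Cdh5, Pecam1). The 4 germ cell and pluripotency genes drawn are near 0 in the yolk sac, unlike Ifitm3, Lin28a and Sall4 of the same list, and the visceral endoderm genes are high there.

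Transcripts of visceral endoderm, the absorptive outer layer of the yolk sac, were abundant in the yolk sac libraries despite the CD31 sort. The summed FPKM of its 10 markers was 1506 to 2003 in E9.5 EC, 3064 to 3397 in E9.5 HE, 5388 to 6218 in E10.5 EC and 4372 to 7534 in E10.5 HE, against 6.52 to 118 in the embryo groups. Afp, the fetal plasma protein gene, was 646 and 478 FPKM in E9.5 yolk sac EC and 2916 and 2838 in E10.5 yolk sac EC. Of the 10 markers 9 were higher in yolk sac EC than in embryo EC at E10.5 and none lower (29.5% of all tested genes called), and the same count was found for HE (35.2% called). Within the embryo their sum was lowest in E10.5 EC (6.52 to 22.3), where Rhox6 and Rhox9 were highest; Cldn6 was 2.31 and 11.9 FPKM of it, and Amn and Cubn had their lowest values in E10.5 HE instead. The part of visceral endoderm in the yolk sac level of Rhox6 was not tested.

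Trophoblast, the lineage from which the genes took their early name, was checked by 12 markers. Its transcription factor genes Eomes and Elf5 stayed at or under 0.127 and 0.111 FPKM in all libraries, Cdx2 at or under 5.35, and Tpbpa, a gene of the junctional zone of the placenta, was at 0 in 15 of 16 libraries. Plac1, a placental gene also on the X chromosome, was 11.7 to 74.4 FPKM and fell in E10.5 yolk sac HE against EC (−1.57, limma adjusted p = 0.0281). No other of the 8 tested markers was called in that comparison. Markers that other epithelia and mesoderm share were abundant, with Krt8 between 23.5 and 495 FPKM, Krt18 between 13.9 and 360, Hand1 between 4.75 and 282 and Krt7 between 0.918 and 51.8; each was lowest in E10.5 embryo EC replicate 1. With stage these 4 fell in embryo EC (1.70% of all tested genes called) and Cdx2 in embryo HE (−1.62; 1.46% called), and none was called in yolk sac EC or HE. At E10.5 yolk sac EC had 5 higher and 1 lower than embryo EC, where 29.5% of all tested genes were called. The part of such cells in the Rhox6 and Rhox9 levels was not tested.

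Among genes that set DNA methylation, all calls between the sites were lower in the yolk sac. Dnmt3b, a de novo methyltransferase gene, was 3.88 and 3.84 FPKM in E10.5 yolk sac EC against 9.58 and 11.8 in E10.5 embryo EC (−1.26, limma adjusted p = 0.00219). Of the 11 tested genes of this list 4 were lower and none higher in that comparison, with Hells, Uhrf1 and Dnmt1 beside Dnmt3b. Of all tested genes 29.5% were called there in either direction. All 11 genes lay below 0, with a median of −0.62 against −0.157 for all genes. In E10.5 yolk sac HE 3 were lower (35.2% of all tested genes called). At E9.5 2 were lower in EC (10.3% called) and 2 in HE (13.0% called), with none higher. In embryo HE the list had no call with stage (1733 of all genes had an unadjusted p under 0.05, and 204 were called by limma), and in yolk sac EC Uhrf1 alone fell with stage (−0.62). Genes of the GABP, Sp1 and Ets families were drawn up as regulators of Rhox promoters, and 6 were tested. Ets1 (−1.06) and Ets2 (−1.23) fell in E10.5 yolk sac HE against EC, where 9.57% of all tested genes were called. Cdh5 and Pecam1 fell there too. None of the 6 was called in the other 4 tested comparisons, where 0.0143% to 2.03% of all tested genes were called.

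Because the genes are X-linked, the sex of the pooled cells was set beside them. Xist, the RNA of the inactive X chromosome, ranged from 6.17 to 30.0 FPKM and the Y-linked Eif2s3y from 5.34 to 14.3, so every library held RNA from both sexes. None of the 10 X- and Y-linked genes of this list was called in the 5 tested comparisons, where 0.0143% to 9.57% of all tested genes were called. Between the sites at E10.5, 3 were lower in yolk sac EC (29.5% of all tested genes called). In yolk sac HE 2 were lower (35.2% called), and none was higher in either cell type. In E10.5 embryo EC Xist was 22.2 and 22.8 FPKM and in E10.5 embryo HE 21.1 and 21.9. The part of sex in the levels of Rhox6 and Rhox9 was not tested.

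The genes most like each copy over all 16 libraries were ranked by Pearson's r on log2(FPKM + 1). For Rhox6 these were the glutathione transferase gene Gstm3 (r = 0.872), Fkbp6, a germ line co-chaperone gene (0.871), Dtnbp1 (0.846), the galactose enzyme gene Galt (0.842) and the endothelial nitric oxide synthase trafficking gene Nostrin (0.833); Rhox9 ranked at place 14, with 0.809. For Rhox9 they were the unnamed transcript E030030I06Rik (0.817), the endosomal sorting gene Chmp2b (0.812), Rhox6 (0.809), Cyct, the testis form of cytochrome c (0.805), and 0610040B10Rik (0.78). All of these had their lowest group mean in E9.5 embryo HE, as Rhox6 and Rhox9 did. This shared low point follows in part from ranking genes by their likeness to the pair. Cyct passed the filter only through E10.5 embryo EC (1.99 and 1.5 FPKM). E030030I06Rik was 14.9 and 14.3 FPKM in E10.5 embryo EC and 1.18 and 3.45 in E9.5 embryo HE, and Fkbp6 and Cyct did not exceed 2.85 and 1.99 FPKM in any library.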

How the data were processed

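RNA from 16 sorted samples was measured by RNA-seq. The authors deposited FPKM per gene symbol and library; per the submitters' processing notes the tools were Cufflinks and featureCounts and the build mm9, with no versions. Aligner, annotation, strand use and handling of multiply matching reads: not given in the sources used here. Genes with at least 1 FPKM in at least 2 libraries (13955 of 33531) were tested on log2(FPKM + 1), a scale that understates the change of low genes, with limma 3.58.1 in R 4.3.3. The model had 1 mean per group over all 16 libraries (8 residual degrees of freedom), an intensity trend and two-sided tests, with Benjamini-Hochberg adjustment within each comparison at 0.05. The fit was tested on simulated data. Rhox6 and Rhox9, the gene lists and the tests were chosen with earlier results of these data known. Alternatives were another constant, no filter, 2 other scalings, a replicate block and fits with fewer libraries. Genes named beside the members were the other Rhox symbols, the 5 most correlated genes, and from each list up to 3 called genes of largest change and its defining genes; some further list members are named to complete a count. Coding sequences came from GENCODE M21. Rhox5 is not reported here.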

Additional observations from a re-analysis of the deposited data

Results flagged for a closer look

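For Rhox6, every yolk sac EC library was above every embryo EC library at E9.5 (1.10 on the log2(FPKM + 1) scale) and below every one at E10.5 (−0.53), a gap of −1.63 between the stages. At E10.5 the same site contrast was 1.41 in HE, with both yolk sac libraries above both embryo libraries, a gap of 1.94 to EC. For Rhox9 at E10.5 the yolk sac was higher in HE (0.57) and lower in EC (−2.37), and, from the same 8 libraries, HE was higher than EC in the yolk sac (0.62) and lower in the embryo (−2.33), a gap of 2.94 either way. These opposite directions were not tested, because the genes were picked for their levels in embryo EC and in the yolk sac. Of the contrasts named here, only HE against EC for Rhox9 in the E10.5 yolk sac was tested by itself. It was not called (interval −0.05 to 1.28, limma adjusted p = 0.225), so the higher level in HE there is not established. The E10.5 gaps rest on the yolk sac libraries labelled HE that Runx1 did not set apart.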

How the results depend on the processing

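Of 226 alternative values for the 10 tested differences 210 kept direction and side of the threshold. For each difference 16 of these values came from leaving out 1 library, most often a library of neither compared group. The difference itself cannot change in those runs, so the count of 210 overstates how well the results hold. Leaving out 1 library gave 1.24 to 1.45 for Rhox6 and 1.69 to 1.86 for Rhox9 with stage in embryo HE; 12 of 16 runs passed, and those without an embryo HE library did not. The remaining ranges for Rhox6 were −0.14 to 0.14 (HE against EC, E9.5 yolk sac), −0.035 to 0.034 (E10.5 yolk sac), 0.38 to 0.50 (stage, yolk sac EC) and 0.30 to 0.58 (yolk sac HE). For Rhox9 they were −0.95 to −0.14, 0.33 to 0.90, −0.44 to 0.14 and 0.61 to 1.41. Scaled to TPM, the Rhox6 differences between HE and EC in the yolk sac changed sign, to 0.023 at E9.5 and 0.20 at E10.5, without passing. That scaling moved the median of all genes by 0.169 in the E10.5 yolk sac (HE against EC), and with stage by −0.108 in embryo HE and 0.142 in yolk sac HE; quantile normalization moved the last by 0.137. With a pseudocount of 0.1 the stage difference in embryo HE was 2.23 for Rhox6 and 3.94 for Rhox9. The main fit did not pair libraries by replicate number. The correlation of replicate differences exceeded 0.1 in 8 of 28 pairs of groups (−0.26 to 0.38), which does not settle whether same-numbered libraries belong together. The replicate block gave the same differences, with limma adjusted p = 0.0141 for Rhox6 and 0.0207 for Rhox9 in embryo HE, and changed no call of either gene. Counts of called genes moved over 1.5 times in some settings: with a pseudocount of 0.1 to 72 in embryo HE with stage (main 204), 51 in yolk sac EC (174), 180 in yolk sac HE (283) and 0 for HE against EC in the E9.5 yolk sac (2; 1336 at an unadjusted p under 0.05). Without the filter they were 327 for embryo HE and 11 for the E9.5 yolk sac. Quantile normalization gave 1 there, TPM 4 there and 81 in yolk sac EC, and the block 1 there and 604 in yolk sac HE. The libraries compared alone gave 316, 28 and 7 with stage (embryo HE, yolk sac EC, yolk sac HE) and 1 for the E10.5 yolk sac (1335), and without the E10.5 yolk sac HE libraries yolk sac EC had 412. Leaving out 1 library gave 45 to 304, 28 to 492, 25 to 1757, 13 to 2625 and 0 to 3 in the order embryo HE, yolk sac EC, yolk sac HE, E10.5 and E9.5 yolk sac. The tests planned for Rhox5 were not run. FPKM carries no read total, so the precision of low values such as Rhox9 in E9.5 embryo HE cannot be given.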
